A study of Mus musculus with 12 samples.

Results

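Adding chemotherapy to immune checkpoint blockade was examined by setting 3 libraries of tumours that received both (the Combination group) against 3 libraries of tumours that received blockade alone (the ICB group), 6 of the 12 libraries of the series. The tumours were mouse 425-ICC tumours, a model of cancer of the bile ducts within the liver (intrahepatic cholangiocarcinoma), and all groups were collected after 8 days of treatment. ICB tumours received dual checkpoint blockade, which by the title of the series targets CTLA-4 and PD1. Combination tumours received the same blockade plus GC, an abbreviation that the labels do not spell out and that is read here as gemcitabine plus cisplatin. The other groups, with 3 libraries each, were Control tumours given IgG and GC tumours given the chemotherapy without blockade. Total RNA of tumour tissue was sequenced in bulk, and the deposited values were FPKM (fragments scaled to transcript length and to the size of the library) for 24421 gene symbols. Of these, 12743 had a mean of at least 1 FPKM over the 6 Combination and ICB libraries and were tested.

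Checkpoint antibodies against CTLA-4 and PD-1 release T cells from inhibitory signals. Gemcitabine is a nucleoside analogue that stops DNA synthesis, and cisplatin forms DNA adducts that engage the p53 response. Bile duct tumours in the liver lie beside hepatocytes, which make plasma proteins, detoxifying enzymes and bile, and several lipid and sterol carriers of hepatocytes are also made by enterocytes of the small intestine.

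Levels are FPKM in replicates 1, 2 and 3 in that order. Differences are Combination minus ICB, given with their SE from limma and on the scale log2(FPKM + 1), on which changes of low genes come out too small. A gene was called at a Benjamini-Hochberg adjusted p under 0.05 over all tested genes. FPKM summed to between 547146 and 660067 per library over the series, and read depth is not known, so counting error is not given. Whether each library is a separate animal is not stated in the labels. The p-values then reflect only how far these libraries scatter, which may be technical.

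The Combination libraries differed from each other in their liver and intestinal transcripts, and this touches most results below. The 20 genes of a hepatocyte list made up 0.148%, 0.366% and 0.569% of FPKM in ICB, and 0.775%, 20.5% and 8.27% in Combination. In Control the share was 0.0220% to 0.0381%, and in GC 0.204% to 1.58%. Among the Combination libraries all 20 were highest in replicate 2, and none was listed at 0 in any Combination library. In 13 of the 20, Combination replicate 1 did not exceed the highest ICB library. The 18 genes of an intestinal list made up 0.0203% to 0.0322% of FPKM in ICB, and 1.03%, 0.124% and 0.0409% in Combination, and all 18 were highest among the Combination libraries in replicate 1. Of the 18, 10 were listed at 0 in all ICB libraries, and 4 were listed at 0 in both Combination replicates 2 and 3. Lct, the lactase of the enterocyte brush border, was listed at 0 in all ICB libraries and at 33.0, 0 and 0 FPKM in Combination. Cdx2, an intestinal transcription factor, was listed at 0 in all ICB libraries and at 7.88, 0 and 0 FPKM in Combination. Alb, the main plasma protein of hepatocytes, stood at 41.7, 288 and 369 FPKM in ICB and at 217, 45398 and 16867 FPKM in Combination. Combination replicate 1 thus stood apart in intestinal transcripts, and replicates 2 and 3 in liver transcripts, and neither tissue is named in the labels. In such bulk samples, more cells of a type and more RNA per cell cannot be told apart.

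Of the biliary and tumour markers, Krt19 stood at 3.18, 2.16 and 7.04 FPKM in ICB and at 48.3, 4.11 and 3.58 FPKM in Combination, a difference of 1.15 ± 1.15 that was not called (limma adjusted p = 0.569). Spp1 stood at 2576, 2912 and 4150 FPKM in ICB and at 4744, 276 and 7598 FPKM in Combination. Over the 13 tested genes of the biliary and tumour list, 9 lay above 0 with a median difference of 1.12, and none was called. In 4 the groups were separated (did not overlap) with Combination above, and in 2 with Combination below. Over all tested genes these shares were 9.88% and 10%, and 36.1% of genes lay above 0. The mean of the list lay 2.02 above ICB in Combination replicate 1, 0.15 below it in replicate 2 and 0.51 above it in replicate 3.

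**Figure D1:**
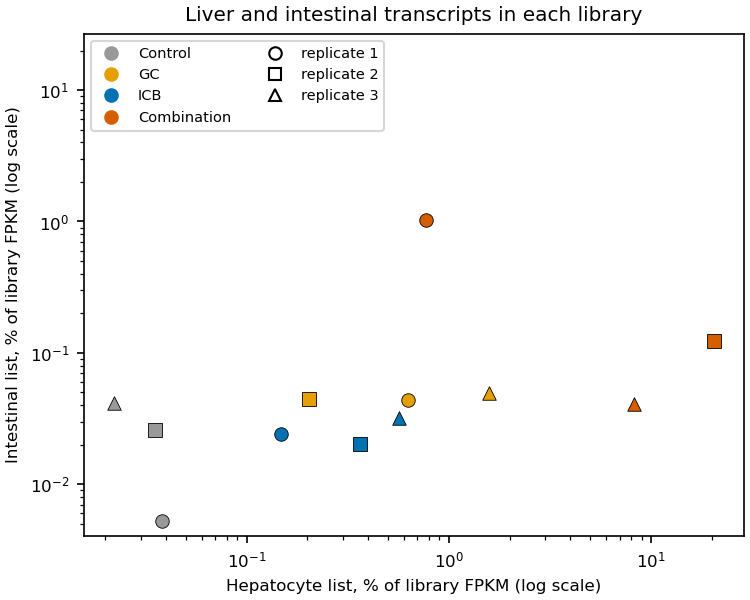
Share of library FPKM in the hepatocyte list (x, log scale) and the intestinal list (y, log scale) for the 12 libraries, 1 point per library, coloured by group with the replicate as the symbol. Combination replicate 1 lies highest on the intestinal axis at 1.03%, and Combination replicates 2 and 3 lie farthest right at 20.5% and 8.27%.

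In limma's test on the 12 libraries, 281 genes rose in Combination over ICB and 26 fell, which is 2.21% and 0.204% of those tested. That test takes the spread as equal in all groups. Combination libraries correlated with each other at 0.598 to 0.853 (Spearman), and ICB libraries at 0.961 to 0.971. A fit to the 6 compared libraries alone called 36 risers and 1 faller, and ended 37 of the 51 calls of named genes. The median difference over all tested genes was -0.20, and 36.1% of genes lay above 0. Groups did not overlap in 9.88% of tested genes with Combination above and in 10% with Combination below. In 232 of the 281, the lowest Combination value was at least 2 times the highest ICB value. Combination replicate 2 was the highest of the 3 in 243 of the 281 risers and replicate 1 the lowest in 192. Of the 281, 7 belonged to the hepatocyte list (5 of its 20 tested genes) or the intestinal list (2 of 17). Setting the library medians equal gave 204 risers and 104 fallers, and quantile normalization gave 286 and 274, so the split between risers and fallers depended on the scaling. With the hepatocyte and intestinal list levels as covariates, limma called 0 genes. The lowest adjusted p was then 0.0502, and 503 of the 12743 genes had a raw p below 0.05. The highest level of each list lay in a Combination library, so that fit cannot fully separate tissue content from group.

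**Figure D2:**
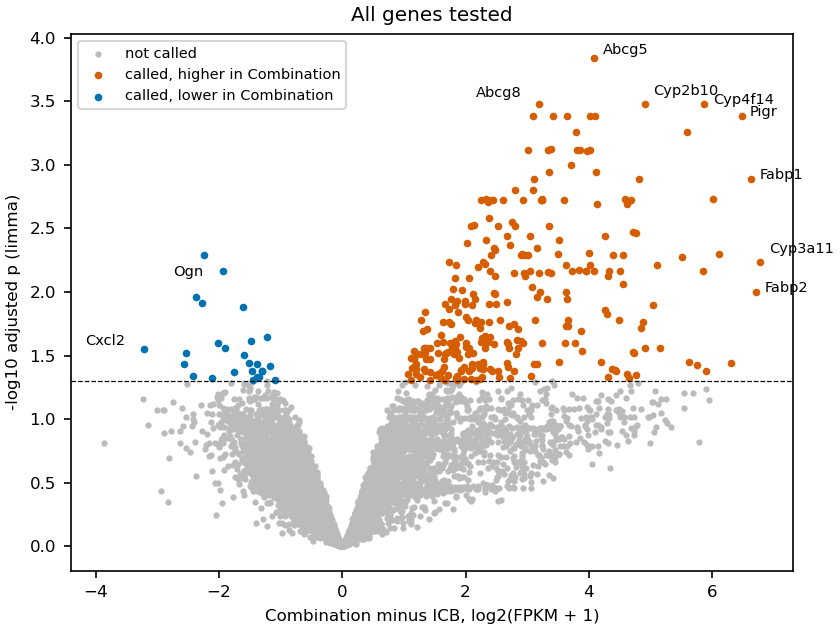
Difference between Combination and ICB on log2(FPKM + 1) (x) against -log10 of the limma adjusted p (y) for the 12743 genes tested. Orange points are the 281 risers and blue points the 26 fallers, the dashed line is the threshold of 0.05, and Abcg5 is the highest point.

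The gene with the smallest p was Abcg5, and its partner Abcg8 was among the next 3. They encode the paired subunits of the transporter that pumps cholesterol and plant sterols from hepatocytes into bile and from enterocytes into the gut. They are divergent neighbours on chromosome 17 (GENCODE M21, GRCm38), with Abcg5 at 84658234 to 84683011 on the minus strand and Abcg8 at 84676302 to 84700333 on the plus strand. Their RefSeq start sites lie 110 bases apart, although Abcg8 has a further start site 6709 bases from that of Abcg5. The stretch between the near pair of start sites is printed because both genes rose together. It lies at chr17:84683012-84683120 (GRCm38.p6, from RefSeq, plus strand), and capitals mark matches to the GATA motif AGATAA read on either strand.

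Abcg5 to Abcg8: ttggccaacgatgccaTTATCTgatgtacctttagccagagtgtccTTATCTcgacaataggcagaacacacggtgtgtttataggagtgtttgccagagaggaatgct

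The stretch held 2 GATA matches. The 250 bases before the further Abcg8 start held no match to any motif searched. Abcg5 stood at 0, 0.0674 and 0.132 FPKM in ICB and at 18.8, 16.0 and 16.6 FPKM in Combination, a rise of 4.09 ± 0.28 (limma adjusted p = 0.000145). Abcg8 stood at 0.0898, 0 and 0 FPKM in ICB and at 8.63, 7.28 and 9.32 FPKM in Combination, a rise of 3.19 ± 0.27 (limma adjusted p = 0.000329). All 3 Combination libraries lay above every ICB library for both genes, which were chosen for an even rise, and both calls were lost with both tissue lists as covariates. Over the alternative fits that tested them, covariate fits included, the smallest rise was 3.06 for Abcg5 and 3.12 for Abcg8.

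Mgam encodes maltase-glucoamylase, a starch-digesting enzyme of the brush border, and was another even riser. It stood at 0.179, 0.245 and 0.297 FPKM in ICB and at 11.3, 10.9 and 7.16 FPKM in Combination, a rise of 3.10 ± 0.28 (limma adjusted p = 0.000413). Its promoter is printed for comparison with the Abcg5 and Abcg8 stretch, with GATA matches in capitals (chr6:40628581-40628830, plus strand, GRCm38.p6, the 250 bases before the RefSeq start).

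Mgam: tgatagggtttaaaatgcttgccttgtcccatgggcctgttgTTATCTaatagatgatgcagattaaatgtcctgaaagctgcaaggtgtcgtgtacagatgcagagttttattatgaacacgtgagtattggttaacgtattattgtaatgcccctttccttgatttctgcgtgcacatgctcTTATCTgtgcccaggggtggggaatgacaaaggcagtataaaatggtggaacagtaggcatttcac

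The Mgam promoter also held 2 GATA matches. Promoters of the other even risers are not printed, so no feature shared by the even risers is shown. The 250 bases before each RefSeq start were searched. GATA matches were found in 9.99% of all 32851 promoter windows and in 6.12% of the 12167 windows of tested genes. They were found in 10.4% of the 279 windows of risers and in 4 of the 19 windows of fallers (21.05%). The windows of risers cover 214 of the 281 genes. Other motifs were searched as well. HNF4, HNF1, ISRE and AP-1 matches were found in 1.08%, 1.43%, 5.02% and 8.24% of the windows of risers. In the windows of tested genes they were found in 0.493%, 0.362%, 2.68% and 4.99%. A match is a description of the letters only.

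Other even risers had the same shape, near 0 or low in ICB and within a factor of 2 across Combination. Among the 26 of this kind were H2-Q1, Creb3l3, Pdzk1, Dsc2 and Aqp11 beside the sterol transporter pair and Mgam. Creb3l3, a membrane-bound transcription factor of hepatocyte and enterocyte lipid metabolism, stood at 3.08, 5.24 and 5.53 FPKM in ICB and at 51.1, 67.4 and 38.6 FPKM in Combination (3.24 ± 0.41, limma adjusted p = 0.00189). Pdzk1, a scaffold of membrane transporters, stood at 2.37, 1.67 and 2.46 FPKM in ICB and at 15.8, 28.7 and 15.5 FPKM in Combination. H2-Q1, a class Ib MHC gene, stood at 0, 0 and 0.742 FPKM in ICB and at 17.5, 27.7 and 15.8 FPKM in Combination. H2-Q1 belongs to a family of near-identical genes, so reads may have been split between its copies. The desmosomal cadherin Dsc2 rose by 2.40 ± 0.38 and the aquaporin Aqp11 by 2.25 ± 0.29 (limma adjusted p = 0.00678 and 0.00189). The calls of these 8 genes held when any 1 of the 12 libraries was left out, and all 8 were lost with both tissue lists as covariates.

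The risers of largest size were intestinal and hepatic carriers and enzymes, and in these the Combination libraries were uneven. Fabp1, the fatty acid binding protein shared by liver and gut, stood at 14.0, 55.5 and 62.6 FPKM in ICB and at 2188, 6421 and 3752 FPKM in Combination, a rise of 6.63 ± 0.77 (limma adjusted p = 0.00129). Fabp2, the intestinal form, stood at 0.334, 1.64 and 0 FPKM in ICB and at 1779, 70.3 and 31.0 FPKM in Combination, a rise of 6.71 ± 1.14 (limma adjusted p = 0.010). Fabp2 was thus highest in Combination replicate 1 and Fabp1 in replicate 2. The call of Fabp2 was lost without ICB replicate 1 (limma adjusted p = 0.0554).

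Pigr, the receptor that carries IgA across epithelia, stood at 0.0858, 1.94 and 2.86 FPKM in ICB and at 86.3, 442 and 226 FPKM in Combination, a rise of 6.48 ± 0.62 (limma adjusted p = 0.000413). Mttp, which loads lipid onto apolipoprotein B, stood at 2.66, 2.62 and 3.79 FPKM in ICB and at 75.7, 72.8 and 33.4 FPKM in Combination, a rise of 3.86 ± 0.41 (limma adjusted p = 0.00077). Apob, its partner, stood at 1.09, 1.87 and 2.00 FPKM in ICB and at 18.0, 173 and 70.8 FPKM in Combination, a rise of 4.56 ± 0.69 (limma adjusted p = 0.00511). Mbl2, a complement-activating lectin, rose by 6.11 ± 0.91, and the alcohol dehydrogenase Adh1 by 5.85 ± 0.93.

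Hpd and Gnmt, enzymes of tyrosine and methionine metabolism, were also among the 10 largest rises and were far higher in Combination replicates 2 and 3 than in replicate 1. Hpd stood at 0, 2.94 and 0.763 FPKM in ICB and at 7.69, 925 and 429 FPKM in Combination, a rise of 6.31 ± 1.37 (limma adjusted p = 0.0362). Gnmt stood at 1.05, 3.25 and 1.52 FPKM in ICB and at 8.74, 975 and 497 FPKM in Combination, a rise of 5.90 ± 1.33 (limma adjusted p = 0.0421). The call of Hpd was lost without any 1 library but GC replicate 3 and Combination replicate 1 (limma adjusted p up to 0.151), and that of Gnmt without any 1 but Combination replicate 1 (up to 0.158).

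Of the 20 hepatocyte genes, all lay above 0 with a median difference of 4.65, and 5 rose. Over all tested genes, 36.1% lay above 0 and 2.21% rose. The 5 were Apoa1, Apob, Cps1, Pck1 (a gluconeogenic enzyme) and Cyp3a11, and they are not markers of liver alone, being also known from intestine. Pck1 stood at 2.10, 7.77 and 3.77 FPKM in ICB and at 47.0, 809 and 320 FPKM in Combination (5.52 ± 0.83, limma adjusted p = 0.00531). The call of Apoa1 (limma adjusted p = 0.0276) was lost without ICB replicate 1 or 2 or Combination replicate 2 or 3 (up to 0.123). That of Cps1 (limma adjusted p = 0.0354) was lost without any 1 library but Combination replicate 1 (up to 0.134). Alb did not pass the test, at a difference of 5.05 ± 1.68 (limma adjusted p = 0.127), and its groups overlapped at Combination replicate 1.

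Of the 17 tested intestinal genes, 16 lay above 0 with a median difference of 2.13, and Fabp2 and Mttp rose. Over all tested genes these shares were 36.1% and 2.21%. Groups did not overlap in 6 of the 17, all with Combination above, against 9.88% of all tested genes. Combination replicate 1 exceeded every ICB library in 17 of the 17, replicate 2 in 10 and replicate 3 in 7. A single library above every ICB library is a weaker criterion than separated groups. Its share over all tested genes was not counted, here or for the lists below. Vil1, the villin of microvilli, stood at 0, 0 and 0 FPKM in ICB and 52.1, 0.118 and 0 FPKM in Combination. Anpep, the brush border aminopeptidase, was separated, at 9.09, 10.9 and 22.3 FPKM in ICB and 208, 47.8 and 34.8 FPKM in Combination (2.34 ± 0.58, limma adjusted p = 0.0638).

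All 26 genes of drug oxidation and conjugation (cytochrome P450 enzymes and phase II enzymes) lay above 0, with a median difference of 4.52, and 6 rose: Cyp2b10, Cyp3a13, Fmo5, Cyp2d26, Cyp3a25 and Gstm3. Of all tested genes, 36.1% lay above 0 and 2.21% rose. Cyp2b10, a P450 known to be induced by drugs through the nuclear receptor CAR, was listed at 0 in all 3 ICB libraries and stood at 26.2, 63.6 and 14.7 FPKM in Combination (4.92 ± 0.42, limma adjusted p = 0.000329). In the chemotherapy group without blockade it was listed at 0, 0.0809 and 0 FPKM. Cyp3a13 stood at 0.223, 0.328 and 0.585 FPKM in ICB and at 24.6, 32.4 and 11.9 FPKM in Combination (4.02 ± 0.43, limma adjusted p = 0.00077). Cyp4f14, which omega-hydroxylates fatty acids and leukotrienes, was not in the list and stood at 0, 0 and 0.410 FPKM in ICB and 51.0, 110 and 48.8 FPKM in Combination (5.88 ± 0.50, limma adjusted p = 0.000329). Cyp2f2, another member, was at 0, 353 and 136 FPKM in Combination and was not called (5.08 ± 1.61, limma adjusted p = 0.116). In replicates 2 and 3, all 26 exceeded every ICB library, and in replicate 1, 15 did. Groups were separated upward in 15 of the 26, against 9.88% of all tested genes. Cyp2b10 belongs to a cluster of similar P450 genes, so its reads may be shared with neighbours.

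The 17 tested genes of bile acid and sterol transport had a median difference of 3.19, and 3 rose (against 2.21% of all tested genes): Abcg5, Abcg8 and Abcc2. Abcc2, the canalicular pump for conjugated bilirubin and drugs, stood at 0.143, 0.378 and 0.535 FPKM in ICB and at 3.93, 35.0 and 25.0 FPKM in Combination (3.63 ± 0.62, limma adjusted p = 0.010). Its call was lost without ICB replicate 1 or 2 (limma adjusted p up to 0.0562). The bile salt exporter Abcb11 stood at 0.244, 66.9 and 27.9 FPKM in Combination and was not called (3.50 ± 1.10, limma adjusted p = 0.114).

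Cholesterol synthesis genes lay above 0 in 21 of 22, with a median difference of 1.30, and none was called. In Combination replicates 2 and 3, 21 and 20 of the 22 exceeded every ICB library, and in replicate 1, 7 did. Groups were separated upward in 6 of the 22, against 9.88% of all tested genes. Complement and coagulation genes, made by hepatocytes, lay above 0 in all 29 tested, with a median of 2.72, and Mbl2 alone rose. In replicate 1 only 4 of the 29 exceeded every ICB library, against 29 and 28 in replicates 2 and 3. Groups were separated upward in 3 of the 29, near the share over all tested genes.

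**Figure D3:**
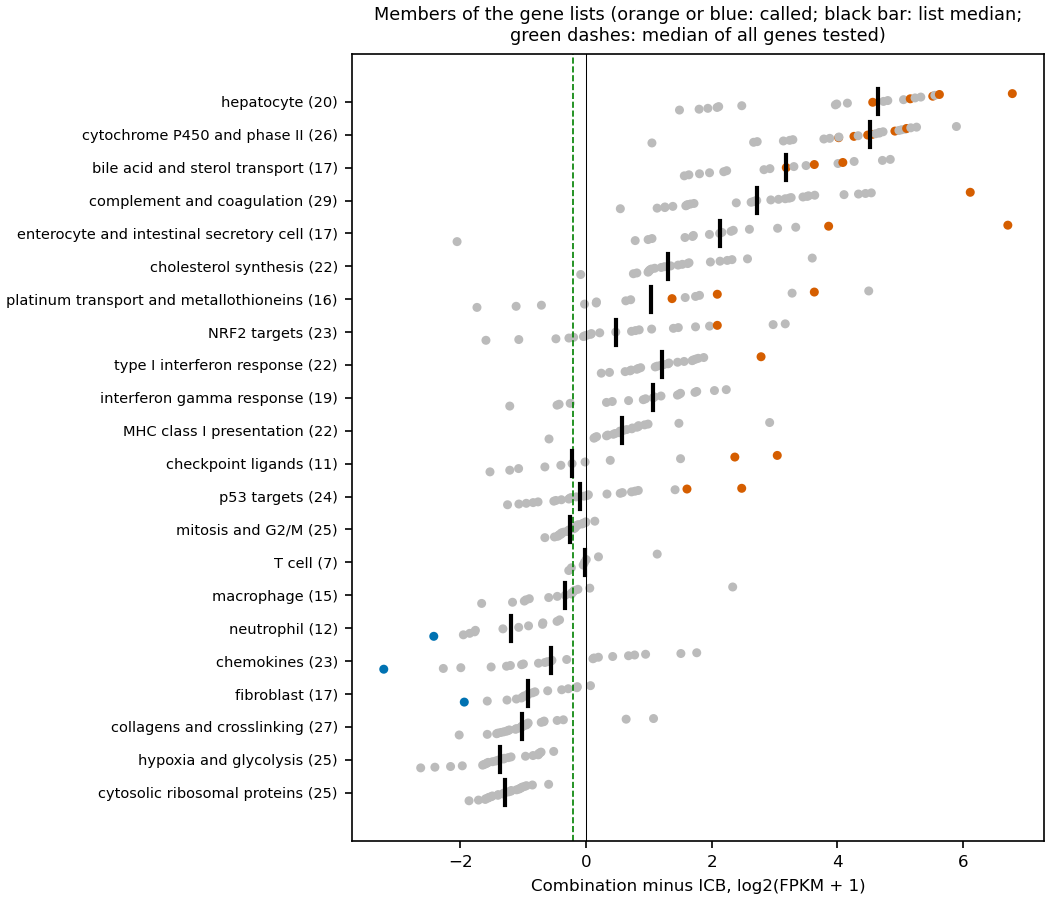
Difference between Combination and ICB on log2(FPKM + 1) for each tested member of 22 gene lists (number tested in brackets), with the list median as a black bar and the median of all tested genes, -0.20, as a green dashed line. Orange and blue members are called genes that rose or fell, and the P450 and hepatocyte lists lie farthest right with medians of 4.52 and 4.65.

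Genes that handle platinum and glutathione were examined because the chemotherapy is read as containing cisplatin. Of 16 tested, 12 lay above 0 with a median difference of 1.04, and Gclm, Slc31a1 and Abcc2 rose. Of all tested genes, 36.1% lay above 0 and 2.21% rose. Gclm, the regulatory subunit of the enzyme that starts glutathione synthesis, stood at 9.27, 6.35 and 8.60 FPKM in ICB and at 24.5, 56.8 and 36.8 FPKM in Combination (2.09 ± 0.29, limma adjusted p = 0.00304). Slc31a1, the copper importer that also carries cisplatin, stood at 10.8, 8.01 and 11.5 FPKM in ICB and at 23.5, 37.2 and 23.5 FPKM in Combination (1.37 ± 0.28, limma adjusted p = 0.0276). Its call was lost without any ICB library or without Combination replicate 2 (limma adjusted p up to 0.135). The metallothionein genes Mt1 and Mt2 lay lower in every Combination library, at differences of -1.11 ± 0.58 and -1.74 ± 0.89, and were not called (limma adjusted p = 0.292 and 0.282).

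NRF2 targets, the oxidative stress programme, had a median difference of 0.47 over 23 genes, and Gclm alone rose. The p53 targets had a median of -0.09 over 24 genes, close to that of all genes, and of 0.12 when the libraries were rescaled without tissue genes and Rn45s. Perp and Fas rose, beside 2.21% of all tested genes, and no other p53 target was called. Perp stood at 6.02, 4.01 and 3.78 FPKM in ICB and at 25.4, 47.9 and 21.5 FPKM in Combination (2.48 ± 0.40, limma adjusted p = 0.00749). Fas, a death receptor, stood at 2.18, 2.57 and 2.55 FPKM in ICB and at 5.85, 19.4 and 7.16 FPKM in Combination (1.61 ± 0.37, limma adjusted p = 0.0473), a call lost without any 1 library but Combination replicate 1 (limma adjusted p up to 0.164). The call of Perp was lost without ICB replicate 2 (limma adjusted p = 0.0501). Cdkn1a, the p53-induced cell cycle inhibitor, stood at 60.2, 58.2 and 76.9 FPKM in ICB and 59.0, 39.6 and 50.2 FPKM in Combination, a difference of -0.39 ± 0.39 (limma adjusted p = 0.565).

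Interferon-stimulated genes lay above ICB in all 22 of those tested, with a median difference of 1.22. Of the 22, 18 were separated upward, against 9.88% of all tested genes. Only Irf7, the transcription factor that amplifies type I interferon, rose. Irf7 stood at 1.98, 1.35 and 3.27 FPKM in ICB and at 30.9, 23.8 and 11.3 FPKM in Combination (2.79 ± 0.63, limma adjusted p = 0.0421). Its call was lost without any ICB library, Control replicate 1 or 3, GC replicate 3 or Combination replicate 2 (limma adjusted p up to 0.174). Isg15 stood at 3.74, 6.86 and 6.20 FPKM in ICB and at 40.1, 14.5 and 9.79 FPKM in Combination (1.56 ± 0.49, limma adjusted p = 0.114). Rtp4 (1.79 ± 0.43, limma adjusted p = 0.0565) and Bst2 (1.75 ± 0.48, limma adjusted p = 0.0845) did not pass either. Replicates 1, 2 and 3 of Combination exceeded every ICB library in 21, 20 and 19 of the 22. In GC minus Control, the same list had a median of 2.04.

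Antigen presentation by MHC class I lay above 0 in 21 of 22 genes, with a median difference of 0.57, and none was called. Of the 22, 8 were separated upward, against 9.88% of all tested genes. H2-K1 stood at 139, 129 and 254 FPKM in ICB and at 350, 747 and 378 FPKM in Combination (1.48 ± 0.44, limma adjusted p = 0.102). MHC class II genes had a median of 0.07 over 9 genes. Interferon gamma response genes had a median of 1.07 over 19, and none was called.

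Among checkpoint ligands, Lgals9 and Ceacam1 rose, while the median of the 11 tested was -0.22 and 7 lay below 0. Of all tested genes, 2.21% rose and 36.1% lay above 0. Lgals9 (galectin-9) stood at 29.9, 18.7 and 26.9 FPKM in ICB and at 66.6, 306 and 111 FPKM in Combination (2.37 ± 0.47, limma adjusted p = 0.0246), and its call was lost without any 1 ICB library (limma adjusted p up to 0.126). Ceacam1, an adhesion molecule of epithelia and lymphocytes, stood at 2.42, 0.879 and 0.722 FPKM in ICB and at 12.8, 34.5 and 11.6 FPKM in Combination (3.04 ± 0.43, limma adjusted p = 0.00361). Cd274, which encodes PD-L1, stood at 8.85, 10.9 and 12.7 FPKM in ICB and at 5.55, 1.72 and 6.23 FPKM in Combination, groups that did not overlap. Its difference of -1.21 ± 0.33 was not called (limma adjusted p = 0.0839).

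T cell genes were low in both groups. Cd3e stood at 0.718, 0.777 and 3.25 FPKM in ICB and at 1.58, 1.24 and 1.26 FPKM in Combination (0.00 ± 0.48, limma adjusted p = 0.997, and a difference of -0.089 with quantile normalization). Cd8a, Foxp3 and Pdcd1 were below the mean of 1 FPKM and were not tested, and Ctla4 stood at 0.627, 0.954 and 3.64 FPKM in ICB and 0, 0.292 and 0.891 FPKM in Combination (-0.86 ± 0.45, limma adjusted p = 0.29). The granzyme Gzmb stood at 0.156, 0.214 and 1.41 FPKM in ICB and at 5.12, 1.75 and 2.02 FPKM in Combination (1.30 ± 0.50, limma adjusted p = 0.169). Gzma was at 31.5, 3.30 and 2.20 FPKM in Combination against 0, 0 and 0.421 FPKM in ICB (2.77 ± 0.78, limma adjusted p = 0.090), and both granzymes were highest in Combination replicate 1. The part of the intestinal transcripts of that library in this difference was not tested.

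**Figure D4:**
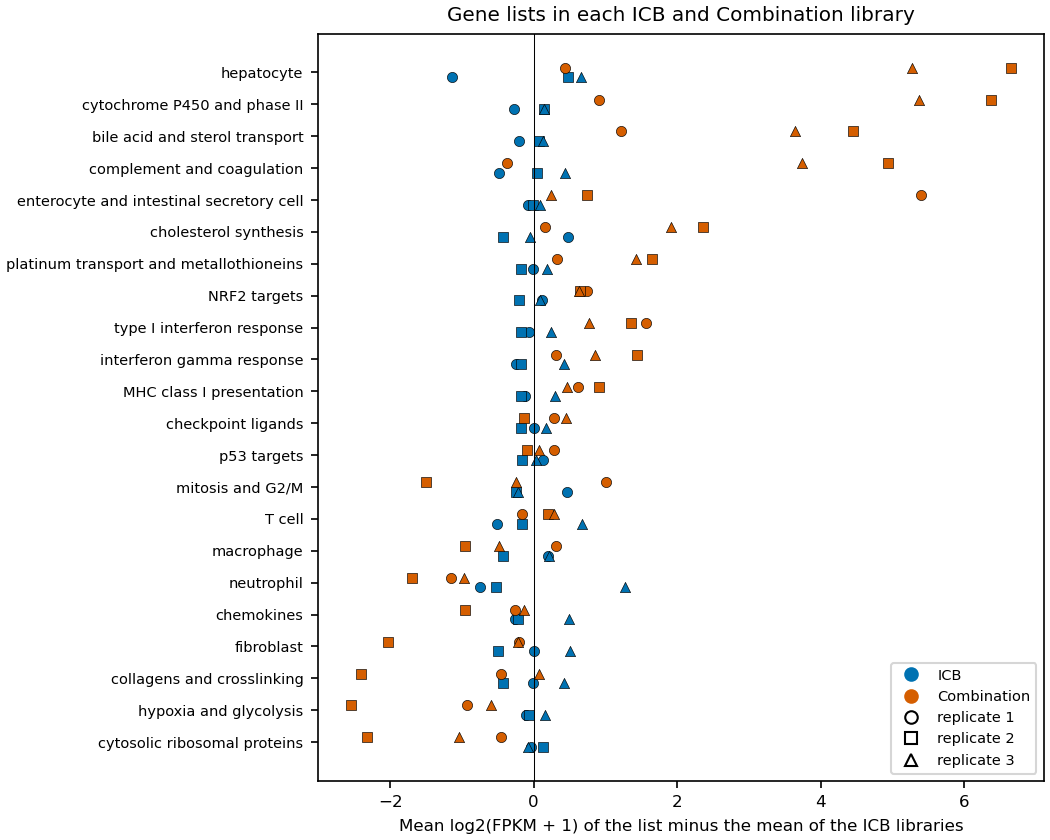
Mean log2(FPKM + 1) of each of 22 gene lists in every ICB (blue) and Combination (orange) library, minus the mean of the 3 ICB libraries, with the replicate as the symbol. The hepatocyte list lies 6.65 and 5.27 above ICB in Combination replicates 2 and 3 and 0.44 above in replicate 1, while the intestinal list lies 5.40 above in replicate 1.

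Of the 26 fallers, Cxcl2, a chemokine that draws neutrophils, had the largest fall. Its promoter is printed because it holds a pair of kappa-B matches (read on either strand, in capitals), the motif of the NF-kB factors that drive inflammatory genes (chr5:90903649-90903898, plus strand, GRCm38.p6, 250 bases before the RefSeq start).

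Cxcl2: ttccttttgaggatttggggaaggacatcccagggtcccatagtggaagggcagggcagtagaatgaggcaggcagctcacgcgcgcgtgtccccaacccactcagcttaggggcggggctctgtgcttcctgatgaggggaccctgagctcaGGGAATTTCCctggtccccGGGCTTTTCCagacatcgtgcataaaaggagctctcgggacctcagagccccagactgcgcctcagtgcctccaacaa

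Kappa-B matches lie 97 and 78 bases before the start. Such matches were found in 1.41% of all windows and in 1.46% of the windows of tested genes. They were found in 1.08% of the windows of risers and in 1 of the 19 windows of fallers. The motif was thus not a shared feature of the fallers, and its part in the fall of Cxcl2 was not tested. Cxcl2 stood at 18.5, 18.4 and 30.8 FPKM in ICB and at 0.856, 0.566 and 4.13 FPKM in Combination, a fall of -3.22 ± 0.66 (limma adjusted p = 0.0279). The call was lost with the replicate number as a block (limma adjusted p = 0.0517), and without any ICB library or Combination replicate 2 (up to 0.119). In Control it stood at 22.2, 3.70 and 6.48 FPKM, so Control replicate 1 lay above ICB replicates 1 and 2 and below replicate 3. Ccrl2, an atypical receptor for chemerin, fell by 1.22 on the log2 scale (limma adjusted p = 0.0225, and 0.0545 with the block), and was chosen after its values were seen. The call of Ccrl2 was lost without any 1 ICB library or Combination replicate 2 or 3 (limma adjusted p up to 0.119).

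The chemokine list had a median of -0.55 over 23 genes, and Cxcl2 alone was called. Cxcl3 stood at 6.58, 8.83 and 14.4 FPKM in ICB and at 1.23, 0 and 3.58 FPKM in Combination (-2.27 ± 0.74, limma adjusted p = 0.124). Cxcl10, induced by interferon, moved the other way, at 0.348, 1.31 and 1.06 FPKM in ICB and 6.42, 5.79 and 3.97 FPKM in Combination (1.76 ± 0.59, limma adjusted p = 0.127). All 12 tested neutrophil genes lay below 0 with a median of -1.20, while 36.1% of all tested genes lay above 0. Il1r2, the decoy receptor for interleukin-1, was the 1 that fell, from 6.70, 16.9 and 12.3 FPKM to 1.66, 0.316 and 2.41 FPKM (-2.42 ± 0.56, limma adjusted p = 0.046, and 0.0565 with the block). Its call was also lost without any 1 ICB or GC library, Control replicate 3 or Combination replicate 2 (limma adjusted p up to 0.185). ICB replicate 3 held the highest level of S100a9, at 400 FPKM against 31.0 and 59.7 FPKM in the other ICB libraries. Relative to the ICB mean, the neutrophil list mean was -0.75, -0.52 and 1.28 in ICB and -1.16, -1.70 and -0.97 in Combination. Much of the fall of this list thus rested on ICB replicate 3. Groups were separated downward in 4 of the 12 neutrophil genes, against 10% of all tested genes.

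Ogn, an extracellular matrix proteoglycan, was a faller whose call held when any 1 library was left out. Ogn stood at 9.13, 5.47 and 7.12 FPKM in ICB and at 1.81, 0.463 and 1.31 FPKM in Combination (-1.94 ± 0.31, limma adjusted p = 0.00689), with the lowest level in Combination replicate 2.

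Neat1, a nuclear long noncoding RNA, stood at 700, 637 and 693 FPKM in ICB and at 162, 40.4 and 238 FPKM in Combination (-2.53 ± 0.53, limma adjusted p = 0.0302). The metalloproteinase Adam8 stood at 64.2, 46.6 and 74.5 FPKM in ICB and at 11.9, 2.56 and 23.8 FPKM in Combination (-2.56 ± 0.56, limma adjusted p = 0.0369). Ubp1, a transcription factor, stood at 43.8, 30.2 and 35.1 FPKM in ICB and at 6.49, 4.66 and 9.34 FPKM in Combination (-2.28 ± 0.40, limma adjusted p = 0.0123). Among these, the call of Ubp1 was lost only without ICB replicate 1 or 3 (limma adjusted p up to 0.0715). Those of Neat1 and Adam8 were lost without any 1 ICB or GC library, and Neat1 also without Control replicate 2 and Adam8 without any 1 Control library (up to 0.121 and 0.142). The stress factor Atf3 fell by 1.45 on the log2 scale (limma adjusted p = 0.0495), a call lost with the block (0.0721) and without any 1 library but Control replicate 1 and Combination replicate 1 (up to 0.192). Rpl34-ps1, a pseudogene whose reads may come from its parent gene, stood at 2669, 3653 and 3075 FPKM in ICB and 1051, 310 and 1149 FPKM in Combination, a call (limma adjusted p = 0.0471) lost without any 1 library but Combination replicates 1 and 3 (up to 0.180).

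The calls of the remaining named fallers, Mir6955, Rgs11, Doc2g and Ggnbp1, were each lost without some single library, with limma adjusted p-values up to 0.121, 0.128, 0.112 and 0.151. With the block, Mir6955 (0.0505) and Ggnbp1 (0.0605) were not called by limma either.

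**Figure D5:**
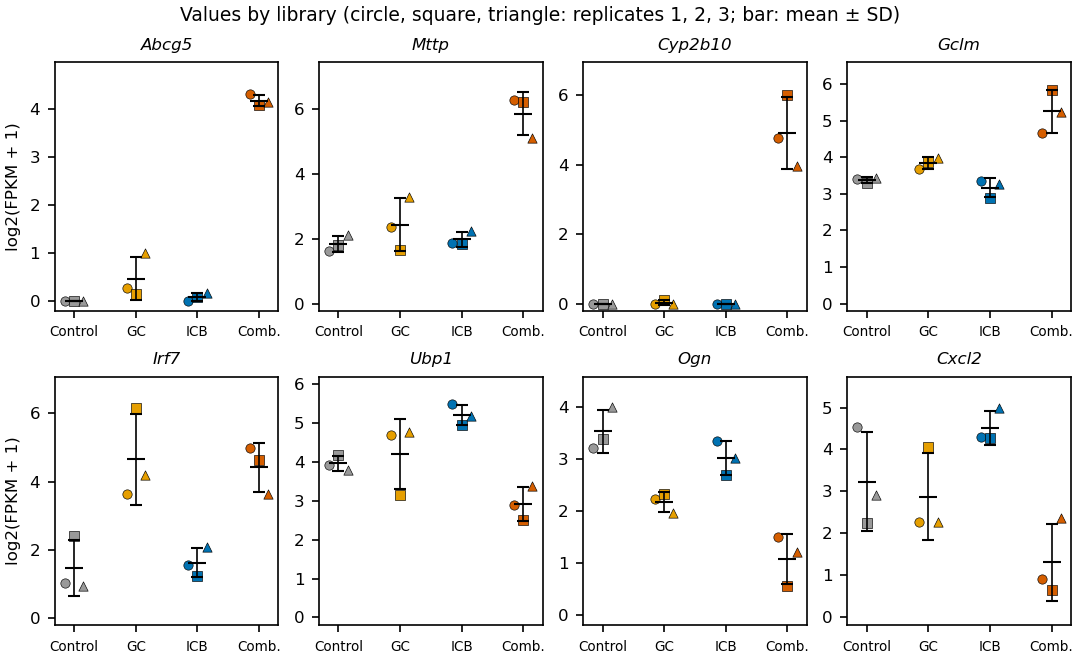
Log2(FPKM + 1) of 8 named genes in every library of the 4 groups, with symbols for replicates 1 to 3 and black bars for mean ± SD. Abcg5, Mttp, Cyp2b10, Gclm and Irf7 lie higher in Combination than in ICB, and Ubp1, Ogn and Cxcl2 lie lower.

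Ribosomal protein genes and hypoxia genes lay below 0 with no member called. Of 25 cytosolic ribosomal protein genes, all were below 0 with a median of -1.28, 23 had groups that did not overlap, and all 25 were lowest in Combination replicate 2. Rpl5 stood at 1629, 2003 and 1510 FPKM in ICB and at 769, 201 and 662 FPKM in Combination (-1.86 ± 0.51, limma adjusted p = 0.0832). Of 25 hypoxia and glycolysis genes, all were below 0 with a median of -1.37 and 20 were separated. Over all tested genes, 10% were separated with Combination below. Slc2a1, the glucose importer, stood at 131, 186 and 230 FPKM in ICB and at 54.6, 7.56 and 135 FPKM in Combination (-2.16 ± 0.79, limma adjusted p = 0.155). The hypoxia-induced Ankrd37 stood at 92.3, 93.8 and 102 FPKM in ICB and at 31.2, 1.75 and 42.4 FPKM in Combination (-2.63 ± 0.86, limma adjusted p = 0.124). In 22 of these 25 genes Combination replicate 2, the library richest in liver transcripts, was lowest. That library was also low over all tested genes, with a median log2(FPKM + 1) of 2.81 against 3.46 and 3.44 in Combination replicates 1 and 3. The share of all tested genes that were lowest in it was not counted. The part of the liver transcripts, or of this lower level, in the differences of both lists was not tested.

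The mean of 27 collagen and crosslinking genes lay 0.45 and 2.40 below ICB in Combination replicates 1 and 2 and 0.07 above it in replicate 3, and none was called. Col1a1 stood at 519, 326 and 772 FPKM in ICB and at 390, 69.5 and 562 FPKM in Combination (-1.03 ± 0.67, limma adjusted p = 0.379). Mitosis genes had a median of -0.25 over 25 genes, near that of all genes. Mki67 stood at 13.1, 5.14 and 6.64 FPKM in ICB and at 15.6, 2.65 and 6.49 FPKM in Combination (-0.18 ± 0.73, limma adjusted p = 0.895, and a difference of 0.033 after that rescaling). The mitosis list lay 1.01 above ICB in replicate 1, 1.50 below it in replicate 2 and 0.25 below it in replicate 3.

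The effect of chemotherapy with blockade was set against its effect without blockade by testing (Combination minus ICB) minus (GC minus Control), comparisons that share no library. This interaction called 5 genes, 0.0392% of those tested: Abcg5, Abcg8, Akr1c19, Cyp2b10 and Cygb. Akr1c19, an aldo-keto reductase, was listed at 0 in all ICB libraries and stood at 5.82, 11.6 and 13.0 FPKM in Combination, while GC stood at 0.126, 0.303 and 0 FPKM. Cygb, the globin of stellate cells, stood at 6.37, 5.20 and 3.30 FPKM in Control and at 35.6, 35.1 and 46.4 FPKM in GC. In ICB it stood at 12.2, 10.1 and 22.4 FPKM and in Combination at 9.61, 7.68 and 13.4 FPKM, groups that overlap. In GC minus Control, Cygb was the single gene called (0.00785% of those tested), with a rise of 2.77 ± 0.33 (limma adjusted p = 0.0352), and in Combination minus ICB it was not called (-0.46 ± 0.33, limma adjusted p = 0.419). None of the 5 was called with the replicate number as a block, or without any 1 of Control replicates 1 to 3, GC replicates 1 and 2, or ICB replicates 2 and 3. Of the 281 risers, 274 had a GC mean above the Control mean, against 58.0% of all tested genes.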

How the data were processed

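RNA of 425-ICC tumour tissue was extracted and sequenced from stranded libraries, per the labels' protocols. The submitters' processing notes name FastQC, cutadapt, HISAT2, SAMtools and HTSeq and genome build mm10, with no versions. The deposited table holds FPKM per gene symbol, and the step that made FPKM, the strand setting of the counting and the annotation are not given in the sources used here. Whole reads could not be recovered from the low values: the fullest bin held a median of 11.1% of values over 66 library pairs. Overlapping and antisense genes are therefore uncertain, as are near-identical families.

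FPKM was analysed as log2(FPKM + 1) with limma 3.58.1 in R 4.3.3, with group means of all 12 samples (8 residual degrees of freedom), an intensity trend and Benjamini-Hochberg adjustment over 12743 genes. The limma step was tested on simulated data with independent genes and the same spread in all groups. The Combination libraries differed more from each other than the ICB libraries did, so that test does not show how well the calls hold here. Samples were grouped by title, 3 per group.

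The genes described were the 10 called genes of largest rise and of largest fall (higher group mean of at least 5 FPKM, no overlap), up to 8 even changes each way (separated by and within a factor of 2), up to 3 called members of smallest p per list, and 15 preset checkpoint, lymphocyte, p53 and tissue genes, leaving out model and clone names. Other genes given with values were chosen after their values were seen. A few named genes are not reported here. The members and the 49 lists (958 of 967 entries matched) were chosen with earlier results of these data known. Promoter windows and gene starts are from RefSeq (GRCm38.p6), gene positions from GENCODE M21.

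The title numbers of Combination and ICB samples were checked for pairing. Deviations of same-numbered samples from their group means correlated at 0.288, 0.141 and 0.197, and those of differently numbered samples at -0.264 to 0.170. The highest of the latter, Combination replicate 2 with ICB replicate 3, exceeded 1 same-numbered pair, so pairing is not established. The description fields number some samples differently from the titles. The fit with the title number as a block, which spans all 4 groups, is given where it changes a call. Alternatives, 26 in all, covered the pseudocount, the filter, scaling, weights, tissue covariates and leaving out each library; leaving out Combination replicates 2 and 3 together was added after seeing the data.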

Additional observations from a re-analysis of the deposited data

Results flagged for a closer look

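For 5 genes the effect of chemotherapy differed between tumours with and without blockade, by limma's interaction test at an adjusted p under 0.05. The difference of the effects was 3.61 for Abcg5 (limma adjusted p = 0.0207), 2.79 for Abcg8 (0.0466), 3.23 for Akr1c19 (0.0466), 4.88 for Cyp2b10 (0.0253) and -3.23 for Cygb (0.0466), all on log2(FPKM + 1). The first 4 were higher in 3 of 3 Combination libraries than in any ICB library, as were all 281 risers and 9.88% of all tested genes. That separation concerns Combination against ICB and not the interaction. Cygb was higher in 3 of 3 GC libraries than in any Control library. The interaction test used these same values, so this separation adds no support to it. The share of all tested genes separated between GC and Control was not counted. With Combination replicate 1 left out the test called 903 genes, and without single other libraries between 0 and 4.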

How the results depend on the processing

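Counts are risers and fallers, 281 and 26 as reported, and 307 together, with 5 genes for the interaction. Leaving out 1 library at a time gave 106 to 1405 risers, 2 to 809 fallers, 111 to 2214 genes together and 0 to 903 interaction genes; the highest counts came without Combination replicate 1. Without Combination replicates 2 and 3, chosen after seeing the data, they were 443 and 56 (499 together, 295 for the interaction), a fit in which the lone Combination library is assumed to vary like the other groups.

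A mean of at least 10 FPKM gave 144 and 7 (151 together, interaction 0), only the 6 libraries 36 and 1 (37 together), sample weights 3268 and 4346 (7614 together, interaction 4171), equal medians 204 and 104 (interaction 1), quantile normalization 286 and 274 (560 together), and rescaling without tissue genes and Rn45s 304 and 16 (interaction 3). The interaction count was 0 with a pseudocount of 0.1, 2 with the filter over 12 columns, 9 with no intensity trend, 367 with the hepatocyte covariate and 498 with both, where risers and fallers were 0 and 0 (0 together). The hepatocyte covariate alone gave 353 risers and 29 fallers, of which 124 and 3 were among those reported, and ended 21 of the 51 named calls. Equal medians and that rescaling moved the median of all genes from -0.20 to -0.13 and 0.02. The cause of these changes was not tested. With the replicate number as a block, limma gave 239 risers and 23 fallers and an interaction count of 0. Of the 51 named genes that were called, the block ended the calls of 7 (Cxcl2, Il1r2, Mir6955, Ggnbp1, Vnn1, Atf3 and Ccrl2) and no other. The 6-library fit ended 37 of the 51 and both covariates all 51.

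A covariate that is a list's own level takes that list's median, and Alb as a member, to near 0 by construction. Directions that turned: with both covariates, Mir6955 gave 0.34, Cd3e -0.15, Mki67 1.67, Krt19 -2.46, Col1a1 0.55 and Apoa1 -2.30. Alb gave -0.16 and Mki67 1.26 with the hepatocyte covariate. Cd3e gave -0.77 with sample weights, -0.089 with quantile normalization, and -0.22 to 0.43 leaving out 1 library, negative without ICB replicate 1 or 2 or Combination replicate 1. Krt19 gave -0.68 with sample weights. Mki67 gave 0.033 after rescaling, -0.73 to 0.36 leaving out 1 library, positive without ICB replicate 1 or Combination replicate 2, and 0.93 without Combination replicates 2 and 3. List medians with both covariates were -0.017 for hepatocyte, 0.35 for fibroblast, 0.61 for checkpoint ligands, 0.79 for chemokines, 0.47 for p53 targets, 0.27 for matrix genes, 0.47 for metalloproteinases, -0.40 for the unfolded protein response and 0.036 for immediate early genes. With the hepatocyte covariate they were -0.19 for hepatocyte, 0.44 for checkpoint ligands, 0.28 for p53 targets and -0.63 for complement and coagulation. The unfolded protein response gave -0.033 with sample weights and p53 targets 0.12 after rescaling. Leaving out 1 library, checkpoint ligands gave -0.56 to 0.19 and p53 targets -0.22 to 0.052, positive without Combination replicate 2, and without replicates 2 and 3 they gave 0.36 and 0.26, and complement -0.34. Depth is unknown, so what it limits cannot be stated.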

Other observations

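Oxidative phosphorylation genes, the respiratory chain, lay above 0 in 21 of 25, with a median difference of 0.39, and none was called. Of the 25, 13 were separated upward, against 9.88% of all tested genes. For the 7 Kupffer cell genes the median difference was 1.26, and none was called. Clec4f, the defining one, stood at 0, 0.537 and 3.03 FPKM in ICB and at 0.907, 57.5 and 26.9 FPKM in Combination. For 15 macrophage genes it was -0.33. Rn45s, the ribosomal precursor RNA, took 0.248% to 4.14% of FPKM in ICB and 0.298% to 0.689% in Combination.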
